A study of Mus musculus with 12 samples.

Results

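The Mouse Exon 1.0 ST array carries, beside the probesets that read the exons of annotated genes, a set of controls in genes chosen for normalization. Part of these controls lie in exons and part in introns. The intron controls, all the probesets that the deposited table types as normgene->intron, are described here beside the exon controls of type normgene->exon. There were 5222 intron controls among the 229581 probesets of the table, with 1324 exon controls and 223004 probesets of the main type. The signal did not choose them.

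The arrays were hybridized with total RNA from whole brains of newborn female mice, 6 KIS +/+ (wildtype) and 6 KIS -/- (KIS-ko). Each of the 6 litters gave 1 wildtype and 1 KIS-ko animal, and each brain 1 array. All the animals came from the KIS line backcrossed to C57BL6/N, which had earlier been kept in a mixed C57Bl/6-129SV background. The deletion is present in every cell of the animal from conception, and a whole brain mixes many cell types, so that fewer cells of a type and less RNA per cell cannot be told apart.

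An intron is transcribed with its gene and is then cut out by the spliceosome. The intron RNA is released as a lariat and is rapidly degraded in the nucleus, so that in a steady-state preparation of total RNA the mature exons far outnumber the introns. A probe inside an intron thus reads 3 things at once that the array does not separate, unspliced or excised RNA, RNA of other genes that resembles the probe, and the background of the hybridization. KIS, the kinase encoded by Uhmk1, phosphorylates SF1, the protein that recognizes the branch point at the start of spliceosome assembly, where U2AF65 binds next to it. The question put to the intron controls was whether the loss of KIS changed their signal, and whether it did so relative to the exons of the same genes.

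The 5222 intron controls belonged by their transcript cluster to 81 host genes, except 63 without a cluster. They were between 25 and 100 bases long with a median of 67, and 4809 of them were summarized from 4 probes and 177 from a single probe. Exon probesets flanked 4993 of them on both sides, and none overlapped an exon probeset. The table marks 4522 as matching 1 place in the transcriptome, 71 with the class 2 and 629 with the class 3, the classes in which some or all of the probes may also bind other transcripts. Dlg1, a scaffold protein of cell junctions and synapses, held 444 of them, ahead of the ubiquitin ligases Rnf220 with 249 and Itch with 248, of Anapc1, a subunit of the anaphase-promoting complex, with 229, and of the autophagy gene Atg5 with 204. Positions are those of the table, whose build is not given.

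The label of the samples was checked on Uhmk1. Over 8 probesets its mean log2 level was 10.97 ± 0.06 (SD, n = 6) in wildtype and 8.85 ± 0.15 in KIS-ko, a difference of -2.11 (limma, adjusted p = 2.91e-07), the single called gene among 17279 (0.00579% of the genes tested). Neuronal markers such as Tubb3 and radial glia markers such as Fabp7 were bright. Their median probeset signals were 6694 to 11740 for the neuronal list and 5298 to 10386 for the glial list. The liver genes Alb and Apoa2 lay between 66.1 and 191. The skeletal muscle genes Ckm and Myh3, also listed as absent from brain, were less dim at 292 and 735. None of the 25 genes of these lists and of those of oligodendrocytes, endothelium, microglia, erythroid cells, choroid plexus and muscle with a fitted value passed the test. The correlation of log2 values between arrays ranged from 0.977 to 0.990 over all probesets and from 0.935 to 0.971 over the intron controls.

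The intron controls were dim beside the exon controls. The signal of a probeset depends on how well its probes bind and on the background as well as on the amount of RNA, so that levels of different probesets are given here as signals on the array and not as amounts of RNA. Their median signal (PLIER units, linear, mean over the 12 arrays) was 114, against 1373 for the exon controls and 511 for the main probesets. The middle of the distribution ran from 53.0 at the 25th percentile to 233 at the 75th, and the 5th and 95th percentiles were 13.5 and 713. Of the exon controls, 95.1% lay above the median of the intron controls and 69.6% above their 95th percentile. Of the main probesets, 18.3% lay below the median intron control. A level below the pseudocount of 16 was found for 7.4% of all intron values, against 0.774% of the exon control values.

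**Figure D1:**
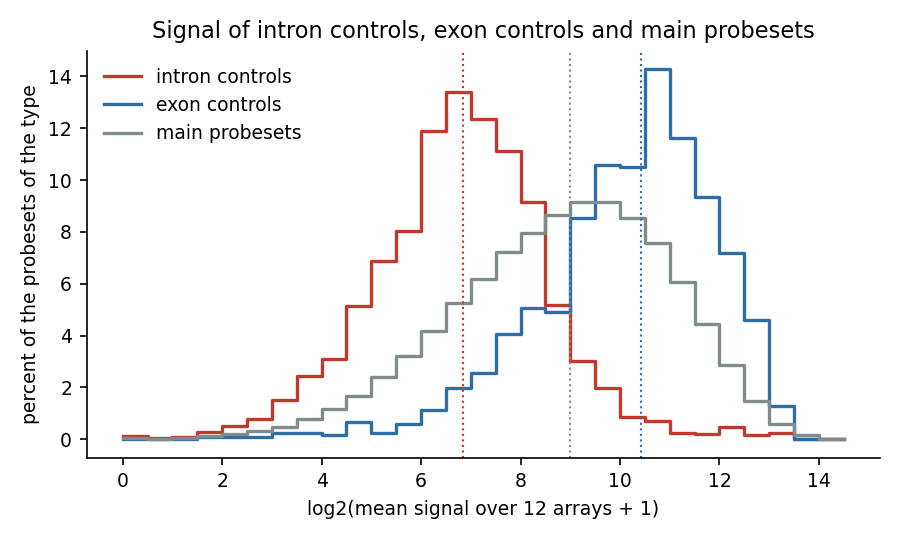
Distribution of the mean signal over 12 arrays, on a log2 scale, for the 5222 intron controls, the 1324 exon controls and the 223004 main probesets, as a percent of each type. Dotted lines mark the medians of 114, 1373 and 511, and the intron controls form a broad peak below the other types with a thin tail that reaches the brightest exons.

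The median level was similar on all the arrays. The arrays had been quantile-normalized before deposit, which draws their distributions together. These medians therefore do not measure how the RNA varied between animals. The median signal of the intron controls on the wildtype arrays had a lowest value of 107, a median of 118 and a highest of 125, and on the KIS-ko arrays these were 97.9, 112 and 118. The ranges of the genotypes overlapped. For the exon controls the same figures were 1313, 1388 and 1471 in wildtype and 1275, 1359 and 1449 in KIS-ko, also with overlap.

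The level of the introns did not follow that of the exons from gene to gene. The median intron signal of a host gene lay between 53.0 for Snapin and 406 for Fam108a, while the median of its exon controls lay between 128 and 8090. Across the 81 genes the Spearman correlation of intron and exon medians was 0.01, or 0.13 with the introns matching 1 place. These are descriptions over genes that share the same 12 arrays. Psmb5, a catalytic subunit of the proteasome, had an intron median of 89.2 below an exon median of 6003. Canx, the chaperone calnexin, had 88.5 against 5667. In 79 of 81 genes the introns were dimmer than the exons. The exceptions were Tomm5, of the mitochondrial import pore, with 395 against 234, and the cluster with the symbol Dctn5, with 160 against 128. This cluster lies on chromosome 6 in the table, whereas RefSeq places Dctn5 on chromosome 7, so that its probesets are not read as that gene. The other 80 host genes lay on the chromosome that RefSeq gives. Over the introns matching 1 place the median was 448 in Tomm5 but 44.7 in this cluster, and in 79 of the 80 genes with such introns they were dimmer than the exons.

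**Figure D2:**
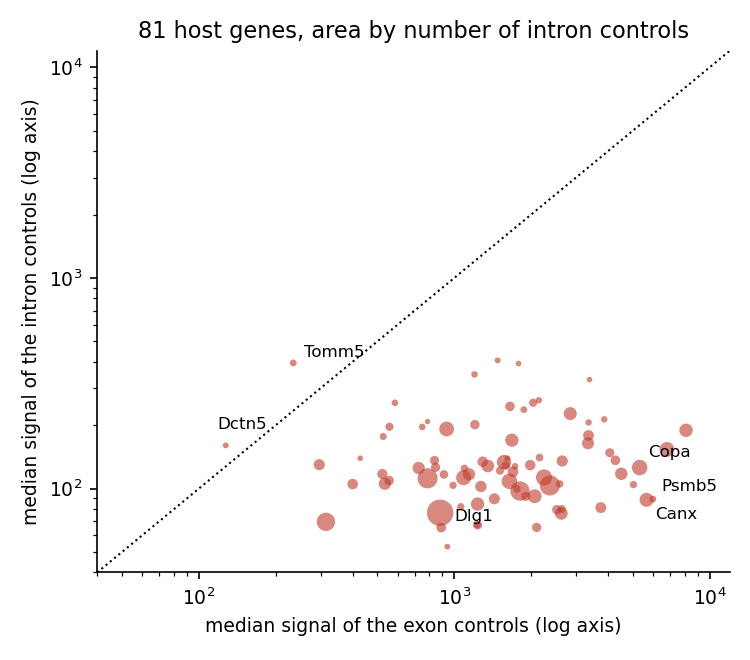
Median signal of the intron controls against that of the exon controls for 81 host genes, both axes logarithmic, with the area of a point set by its number of intron controls and a dotted line where both are equal. The points spread widely along the exon axis but stay between 53.0 and 406 on the intron axis, and Tomm5 and the cluster with the symbol Dctn5 lie above the line.

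A small number of intron controls were as bright as exons. Above the median of the exon controls lay 109 of them (2.09%), of which 84 were of the classes 2 and 3, although these classes made up 13.4% of the intron controls. Among the 10 brightest, 9 were of these classes, and among the 50 brightest 46. The brightest, in Anapc1 on chromosome 2 at 128509692 to 128509760, had a mean signal of 11865 and is of class 3. Next came introns of Tbl3, a nucleolar protein, of 2510006D16Rik (now Tmem234), of Ppm1a, a protein phosphatase, of Dlg1, of the ubiquitin-conjugating enzyme Ube2g1, of the exportin Xpo7, of Ube2v1, of the stress granule protein G3bp2 and of Dscr3.

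The Ppm1a probeset was the one among these 10 that matches 1 place. It lies on chromosome 12 at 73862814 to 73862843, 343 bases downstream of the nearest exon probeset and close to the start of the gene. Its signal on the wildtype arrays had a lowest value of 10335, a median of 10732 and a highest of 11279, and on the KIS-ko arrays 10360, 10758 and 11718. The genotypes overlapped almost entirely, with a log2 difference of 0.01 (SE 0.06, limma adjusted p = 0.985 without the filter described below). The 10 brightest intron controls differed between genotypes by -0.06 to 0.01 on the log2 scale, and their lowest unadjusted p was 0.358.

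Bright introns were also found in Rpl23 and Nmt1. The brightest of the 18 intron controls of Rpl23, a ribosomal protein gene, had a mean signal of 4341 and is of class 3. Another, with a mean signal of 1356, carries the symbol Snora21, a small nucleolar RNA encoded in an intron and kept after splicing. Its lowest, median and highest signals were 744, 1493 and 1649 in wildtype and 1029, 1334 and 1562 in KIS-ko, a log2 difference of -0.04 (SE 0.15). The genotypes overlapped. In Nmt1, an N-myristoyltransferase gene on chromosome 11, 6 intron controls of class 2 between 102909199 and 102910881 had mean signals of 3810 to 5959.

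The median signal was also taken by distance from the exon probesets. Among the intron controls matching 1 place, the median signal was 132 within 250 bases downstream of an exon probeset (n = 553) and 87.8 beyond 5000 bases (n = 1009). Measured from the exon that follows, the medians were 111 and 102. In introns over 5000 bases long it was 115 in the first of 3 equal stretches, 106 in the middle and 93.5 in the last, and in introns of 1000 to 5000 bases 123, 111 and 93.6. The bins hold different probes and genes, whose binding was not separated from the amount of RNA, and the middle ranges of the bins overlapped widely, from 65.2 to 246 in the nearest bin and from 39.8 to 173 in the farthest.

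For the comparison of genotypes, a probeset was kept only if its SD over the arrays was at most 0.4 of its mean in wildtype and in KIS-ko, the limit of the study's methods. This filter took 944 intron controls (18.1%), against 2.95% of the exon controls and 7.28% of the main probesets, and left 4278. In the dimmest of 5 equal classes of mean signal, set on all the probesets, it took 33.3% of the intron controls and 35.4% of the main probesets. A probeset that drops to the background in 1 genotype is likely to be taken by such a filter, since its relative spread is then large, and members removed by it are given separately.

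No consistent rise of intron signal relative to exons was seen in KIS-ko brains. Per litter, the mean log2(signal + 16) of the intron controls differed between KIS-ko and wildtype littermates by 0.03, -0.05, -0.07, -0.04, -0.10 and -0.15 in litters 1 to 6, a mean of -0.06 ± 0.06 (SD, n = 6 litters). Intron controls were lower in 5 of 6 litters. The exon controls differed by -0.09, -0.12, -0.01, 0.09, -0.02 and -0.15, a mean of -0.05 ± 0.09. The difference of introns minus exons was 0.12, 0.07, -0.07, -0.12, -0.07 and -0.00, with a mean of -0.01 ± 0.09. It was positive in litters 1 and 2 and negative in the 4 others, and the spread between litters was several times the mean. With 1 litter left out the mean lay between -0.04 and 0.01, and it was above 0 without litter 4. This score was not tested.

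The main probesets moved as the exon controls did, by -0.04 ± 0.06 over the litters, with litter 4 as the one in which they were higher in KIS-ko. Introns minus main probesets gave -0.02 ± 0.07. With the arrays centred on the median of their main probesets, the intron difference was -0.01 ± 0.09, and with the arrays quantile-normalized again it was -0.02. On the original linear signal, without the constant, the log2 of the mean KIS-ko to wildtype ratio was -0.02 for the introns, and 0.01 for introns over exons.

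**Figure D3:**
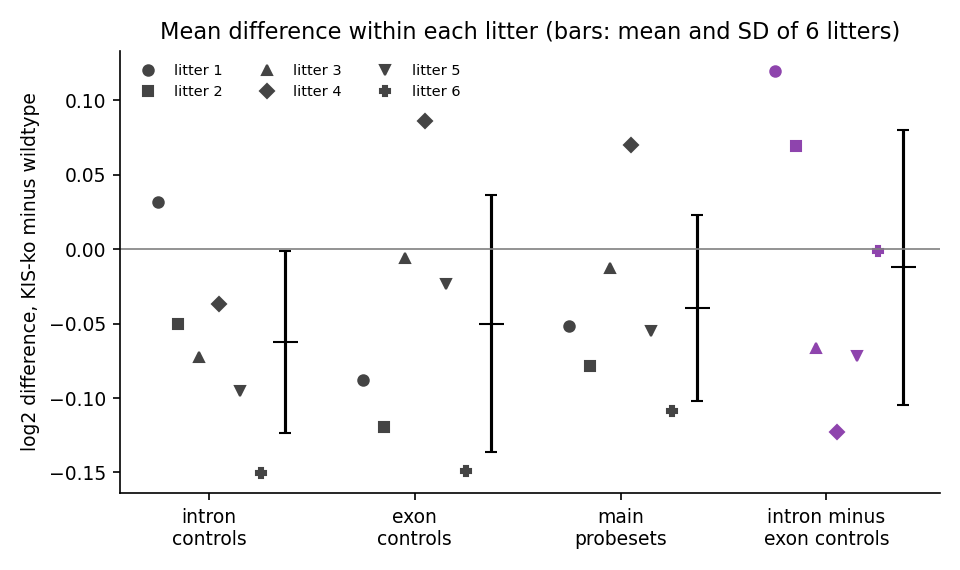
Mean log2(signal + 16) difference, KIS-ko minus wildtype, within each of 6 litters for intron controls (n = 4278), exon controls (n = 1285), main probesets and the difference of introns minus exons, with the mean and SD over litters as bars. Litter 6 is lowest for the first 3 and near 0 for the last, where litters 1 and 2 lie above 0 and litters 3, 4 and 5 below.

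The genotype difference was also taken by level. In the 5 classes of mean signal, the intron controls differed by -0.08 ± 0.07, -0.06 ± 0.07, -0.04 ± 0.07, -0.01 ± 0.08 and -0.03 ± 0.05 from the dimmest class to the brightest (SD over 6 litters). The main probesets of these classes differed by -0.02 ± 0.03, -0.04 ± 0.06, -0.05 ± 0.09, -0.04 ± 0.08 and -0.03 ± 0.05. The difference between classes was not tested. The dimmest class, below a signal of 122, held 52.8% of the intron controls, and the next 31.8%.

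Probeset by probeset, 1 of the 4278 intron controls passed the limma test with the litter as a block at an adjusted p of 0.05, where 14 of 212366 probesets did (0.00659%). It was higher in KIS-ko and lies in Copa. At an unadjusted p below 0.05, 387 intron controls (9.05%) were lower and 69 (1.61%) higher in KIS-ko, against 4.77% lower and 1.89% higher of all the probesets. With the arrays centred on the median of the main probesets these counts were 236 lower (5.52%) and 142 higher (3.32%), against 2.67% and 3.59% of all the probesets. With the arrays quantile-normalized again they were 268 (6.26%) and 123 (2.88%), against 3.05% and 3.20%. Without litter 4 the counts were 595 lower (13.9%) and 171 higher (4.00%), against 12.7% and 3.28% of all the probesets. Within the dimmest class, 11.5% of the intron controls were lower at this level, against 11.9% of the exon controls (5 of 42) and 7.53% of the main probesets. In the next class these were 8.86%, 9.23% (12 of 130) and 7.44%, and in the middle class 4.55%, 6.03% (12 of 199) and 5.88%. Over all classes the exon controls, most of which are bright, gave 53 lower and 7 higher of 1285, and none called.

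The arrays of the genotypes did not overlap for 21 intron controls, 19 lower (0.364%) and 2 higher (0.0383%) in KIS-ko, against 0.131% lower and 0.0523% higher of all the probesets. Copa held 14 of these 21. Outside Copa, 7 of 5081 (0.138%) were separated, in Rpl23, Hdac5, Atg5, Arfgef1, Itch and Ube2g1. Over the 6 litters, 163 intron controls (3.12%) were lower in each and 40 (0.766%) higher, against 2.11% and 0.916% of all the probesets. Without Copa these shares were 2.64% and 0.748%.

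Copa encodes the alpha subunit of the COPI coat, which returns membrane proteins from the Golgi apparatus to the endoplasmic reticulum. It was singled out because 9 of the 10 intron controls of lowest p that moved the same way in all litters lie in it, so its counts are descriptions without a test. The gene is listed on the plus strand of chromosome 1 from 174012682 to 174052443, 1.87 Mb from Uhmk1, and holds 141 intron controls. Of these, 29 (20.6%) were lower in all 6 litters, 2 (1.42%) were higher, and the arrays of the genotypes did not overlap for 12 lower and 2 higher ones. The median difference of its introns was -0.12, as was that of its 39 exon probesets.

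The called intron control of Copa lies at 174046300 to 174046324 and is read by 1 probe. Its signals were 650, 583, 580, 533, 355 and 512 in the wildtype animals of litters 1 to 6 and 1990, 1687, 1149, 1818, 1279 and 1841 in their KIS-ko littermates. Every KIS-ko array lay above every wildtype array. The mean was 3.04-fold higher in KIS-ko, with a log2 difference of 1.57 (SE 0.11, limma adjusted p = 0.00666). The call was lost without litter 1, 2, 4, 5 or 6 (adjusted p from 0.0504 to 0.0596) and in the paired test without moderation of the variances (0.532). Set against the other probesets of its transcript cluster, it was higher by 1.74 (SE 0.13, adjusted p = 0.0344), one of 3 probesets called in this way among 209558 (0.00143%).

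The other introns of lowest p in Copa were lower in KIS-ko. The one at 174039076 to 174039141 had a lowest, median and highest signal of 202, 270 and 324 in wildtype and 116, 156 and 232 in KIS-ko, a log2 difference of -0.68 (SE 0.07, adjusted p = 0.0538). Its groups overlapped, but each KIS-ko animal lay below its littermate. The one at 174034929 to 174034974 gave 343, 458 and 574 in wildtype and 225, 252 and 292 in KIS-ko, without overlap (log2 difference -0.82, adjusted p = 0.101). The one at 174025624 to 174025670 gave 210, 222 and 245 against 59.1, 83.7 and 156, also without overlap (-1.20, adjusted p = 0.219). The remaining 5 of Copa lay between -0.93 and -0.44, with adjusted p from 0.101 to 0.387. The tenth intron of this rank lies in Nat15 (now Naa60), an N-terminal acetyltransferase gene on chromosome 16, with -0.57 (adjusted p = 0.333).

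The filter on the spread removed the intron controls of Copa with the largest differences. Of the 10 intron controls of Copa below -1 on the log2 scale, 9 failed the filter. All 10 were lower in 6 of 6 litters. Outside Copa a single intron control was below -1. The largest difference, -2.87, belonged to the one at 174035207 to 174035279, with a lowest, median and highest signal of 250, 389 and 524 in wildtype and 2.59, 32.8 and 190 in KIS-ko. Its genotypes did not overlap, and without the filter its adjusted p was 0.15. Its neighbour at 174034834 to 174034885 gave 317, 455 and 510 against 87.1, 112 and 242, a difference of -1.68 that was called without the filter (SE 0.13, adjusted p = 0.0219), when 0.0061% of all the probesets were.

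Intron controls lie in 21 of the gaps between the exon probesets of Copa. Of these, 12 (57.1%) held at least 1 intron control lower in all litters and 8 (38.1%) at least 1 without overlap of the genotypes. In the 80 other host genes these were 99 (17.9%) and 7 (1.26%) of 554 gaps, which held more intron controls on average than those of Copa. Between the exon probesets at 174034261 and 174035327 lie 5 intron controls, from 174034834 to 174035279, and all were lower in each litter, by 0.82 to 2.87 on the log2 scale. The exon probeset that follows, at 174035327 to 174035380, differed by -0.41 (adjusted p = 0.622), with signals of 3110 to 3615 in wildtype and 2000 to 3039 in KIS-ko. In the intron before, between 174032444 and 174034141, the 8 intron controls differed by 0.02 to 0.38, with a median of 0.17. The 6 intron controls of a further single gap, from 174038639 to 174039797, had a median of -0.54, and 4 of these were lower in all litters.

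The exons of Copa were also mostly lower in KIS-ko. Of its 39 exon probesets 36 (92.3%) had a difference below 0, 14 (35.9%) were lower in all 6 litters and 4 (10.3%) were lower without overlap of the genotypes, against 65.3%, 2.11% and 0.131% of all the probesets. At an unadjusted p below 0.05, 16 (41.0%) were lower, against 4.77% of all, and none was called. The mean of its 35 exon controls differed by -0.17 ± 0.08 over the litters, and that of its 108 intron controls past the filter by -0.13 ± 0.08. Both were lower in 6 of 6 litters. The exon control at 174044876 to 174044948, of class 3, gave 3014, 3510 and 3651 in wildtype and 1343, 1704 and 2637 in KIS-ko, a log2 difference of -0.97 (SE 0.11, adjusted p = 0.106). The one at 174012682 to 174013026 gave -0.97 as well. The arrays of the genotypes did not overlap in either. The other exon controls of the gene lay between -0.26 and 0.02.

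**Figure D4:**
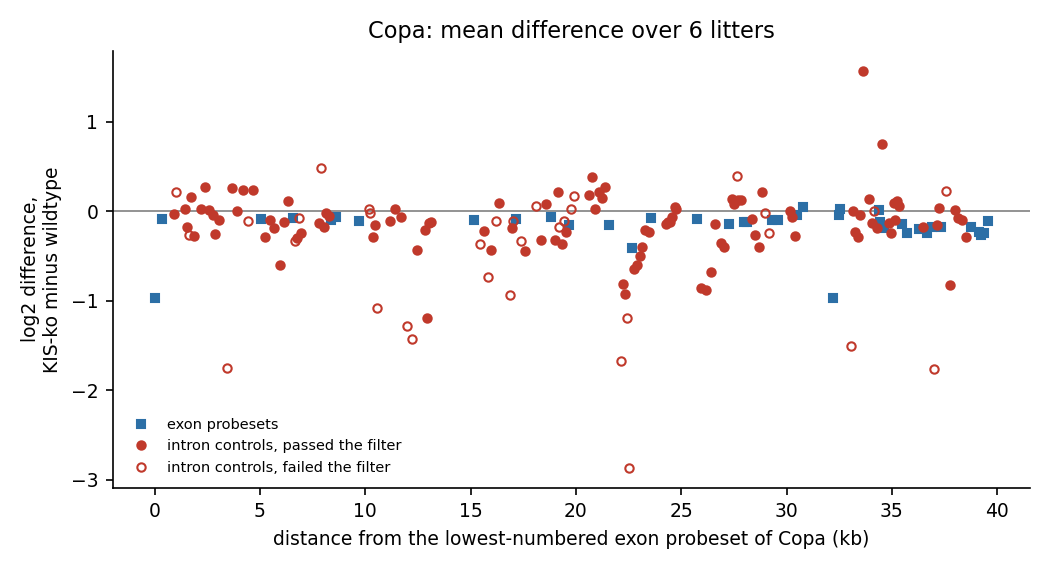
Mean log2(signal + 16) difference over 6 litters, KIS-ko minus wildtype, for the 141 intron controls and 39 exon probesets of Copa by their distance in kb from its first exon probeset, with open circles for intron controls that failed the filter on the spread. The medians of the intron controls and of the exon probesets are both -0.12, and single intron controls in several places along the gene lie below -1, down to -2.87.

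Differences were also found in other genes near Uhmk1. Copa is the one host gene of the controls within 10 Mb of it, and the probesets of all types are counted together here. Of the 14 called probesets of the whole table, 7 belong to Uhmk1 and 6 others, in Ddr2, Sdhc, Copa, Dcaf8, Dusp12 and Adamts4, lie within 2 Mb of it. The genotypes were separated in 10.3% of the other probesets within 1 Mb of Uhmk1 for lower and 2.16% for higher KIS-ko values, and in 7.53% and 1.43% of those at 1 to 2 Mb. The shares were 2.02% and 1.09% at 2 to 5 Mb and 0.693% and 0.115% at 5 to 10 Mb, against 0.0849% and 0.045% on the other chromosomes. Within 5 Mb they were still 4.81% and 1.41% without Copa. The allele carries with it the DNA beside it, and for Copa an effect of the loss of KIS and one of the flanking DNA cannot be told apart.

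**Figure D5:**
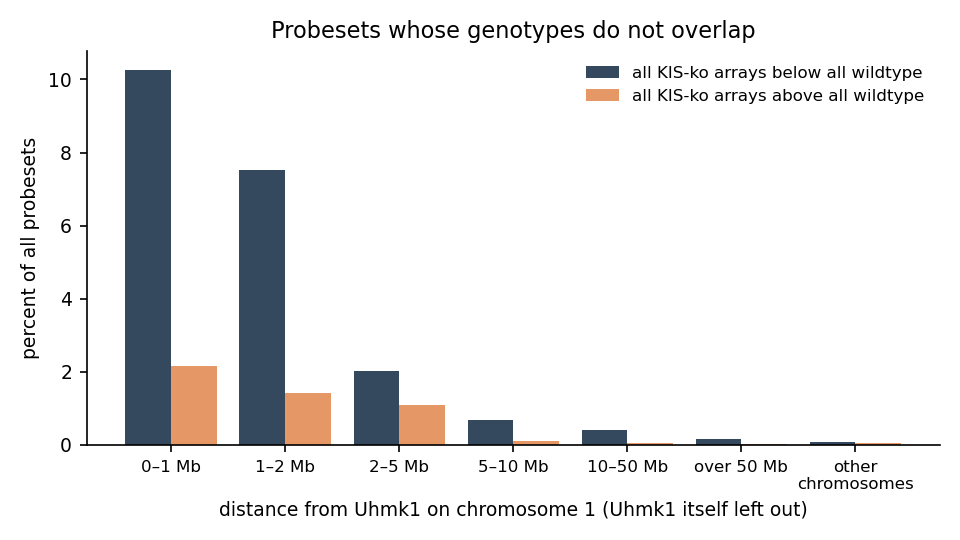
Percent of all probesets, of every type and without Uhmk1, whose 6 KIS-ko arrays all lay below (dark) or above (orange) the 6 wildtype arrays, by distance from Uhmk1 on chromosome 1 and on the other chromosomes. The share for lower values falls from 10.3% within 1 Mb to 0.0849% on other chromosomes, and Copa lies at 1.87 Mb.

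Gene by gene, no host gene passed the test of introns against exons. With the main probesets as the exons, 18 genes had at least 2 of each kind, and none was called by limma (0%). At an unadjusted p below 0.05, 2 of them passed (11.1%), both lower for the introns. These were Huwe1, a large ubiquitin ligase, at -0.14 and Apoa1bp, with 2 exon probesets, at -0.15. All 18 genes had the same SE of 0.07, so that these p rest on 1 shared variance and not on the spread of the gene itself. Over the litters Huwe1 ran from -0.34 to 0.15 and Apoa1bp from -0.39 to 0.14. Without the litter block 0 genes passed at this level. With the exon controls of the same cluster as the exons, 81 genes could be compared, none was called (0%), and 4 were lower at an unadjusted p below 0.05 (4.94%), Cic, Rpl23, 2510006D16Rik and Huwe1. The differences of the 81 genes lay between -0.15 and 0.12 with a median of -0.01, and 46 were negative.

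In 2 of the 81 genes the introns were lower relative to the exons in all 6 litters, and in none were they higher in all 6. Cic, the transcriptional repressor Capicua, gave -0.08, -0.06, -0.27, -0.08, -0.20 and -0.12 in litters 1 to 6 (mean -0.14, SE 0.05, limma adjusted p = 0.954 over the 81 genes). Rab14, a GTPase of endosomes, gave -0.03, -0.07, -0.14, -0.18, -0.11 and -0.02 (mean -0.09, SE 0.05, adjusted p = 0.971). Neither passed the test. Copa itself gave 0.04 (SE 0.05) on this measure, in which its introns are averaged.

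The genes with most intron controls showed no shift between introns and exons beyond their errors. The introns minus exons of Dlg1 differed by -0.01 (SE 0.05), of Rnf220 by 0.01 (SE 0.06), of Itch by 0.04 (SE 0.06), of Anapc1 by -0.03 (SE 0.06) and of Atg5 by 0.03 (SE 0.06). The introns of Itch had a median difference of -0.13 and its exons one of -0.15, so that both were lower together. Probesets set against the other probesets of their gene gave no call among 853 intron controls, with 2 calls in 203797 probesets (0.000981%).

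By the first letters of their symbols, the host genes included 1 gene of ribosomal proteins, Rpl23, with introns minus exons at -0.15 (unadjusted p = 0.0358), and 3 of the proteasome, Psma1, Psmb5 and Psmc5, from -0.03 to 0.05. Also found in this way were Cox18, an assembly factor of cytochrome oxidase, at -0.02, the translation factor Eif5 at 0.07 and the RNA-binding protein Hnrnpul2 at -0.11. Beginnings of symbols miss members with other names, such as the mitochondrial translation factor Mtif2. Beside Rpl23, none of these had an unadjusted p below 0.05.

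No intron control reads Uhmk1, Sf1 or a partner of SF1. Of the 15 genes of 3' splice site recognition with a usable symbol, among them Sf1, U2af1, the SF3a and SF3b subunits and Puf60, none passed the gene test (background 0.00579%) or an unadjusted p of 0.05 (6.16%), and their differences lay between -0.08 and 0.07 with 13 negative. The table's U2af2 stands for probesets on chromosome 13 and was not used. Tfrc, Gabrg1, Ptgds and Glra3, genes with Q-PCR assays for unspliced RNA, hold no intron control. Their mRNA differed by -0.29 to -0.17, with 4 of 4 below an unadjusted p of 0.05 and none called. The study chose them on these same samples, so that this is no independent evidence of their direction. Unspliced RNA of these genes was therefore not read by the intron controls.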

How the data were processed

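The deposited values are linear intensities, which the authors obtained in the Affymetrix Expression Console by quantile normalization of the exon-level data and PLIER summaries. Intron and exon controls were taken from the probeset type column, and host genes from the transcript cluster or, in the stricter tests, from enclosing main probesets of a single symbol, which reached 1043 intron controls of 18 genes. Signals were tested as log2(signal + 16), on which fold changes of dim probesets are understated, with limma 3.58.1 in R 4.3.3, blocking by litter, and the Benjamini-Hochberg method was applied over every probeset or gene fitted. Scores over the members were not tested. Descriptions used pandas 2.3.3, numpy 2.4.6 and scipy 1.17.1 under Python 3.11.15, and plots matplotlib 3.10.9. Fits were checked on simulated data.

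The labels give each pair of littermates. After subtraction of the genotype means over main probesets, the correlation within pairs was 0.15, 0.02, 0.15, -0.09, 0.32 and -0.06 for litters 1 to 6, and -0.02 on average across litters. Separate animals are the replicates, and 12 arrays limit the precision. Signal over background could not be computed, as no dedicated background probes were used here. Named genes were the hosts of the 10 brightest introns, the introns and hosts of lowest p moving one way in 6 litters, the 5 hosts with most introns, and the lists. Some listed genes are not reported here. The members, lists and rules were chosen with earlier results of these data known. Symbols were updated with RefSeq genes of GRCm38.p6, whose positions differ from those of the table. No sequences are printed.

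The alternatives were no block, pseudocounts of 1 and 64, no filter, centred or again quantile-normalized arrays, probesets matching 1 place, eBayes with trend and robust options, medians, the paired test without moderation of the variances, dim or enclosed introns only, ratios, other exon references and each litter left out. Added after seeing the data were fits without Copa, hosts by transcript cluster, and exon controls without the filter or with introns matching 1 place.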

Additional observations from a re-analysis of the deposited data

Results flagged for a closer look

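Of 65 groups of 6 values examined, 3 held a value far from the others by Dixon's criterion at 95%, which chance meets in about 1 in 20 groups. All 3 came from the KIS-ko array of litter 5, which also had the lowest intron median of the 12 arrays, 97.9, and the largest share of intron controls below a signal of 16, 9.36%. Without litter 5 the mean difference of the intron controls was -0.06, and that of introns minus exons -0.00. The intron control of Nat15 had a signal of 21.5 on that array, where the other KIS-ko arrays lay between 48.8 and 64.5. The bright intron controls of Xpo7 and Dscr3, both of class 3, had signals of 11414 and 10624 on it, above the medians of 9894 and 9090 of their genotype.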

How the results depend on the processing

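The difference of the intron controls lay between -0.08 and -0.01 under 18 alternatives, and that of introns minus exons between -0.04 and 0.01 under 19. All were within 1 SD of the values given, but for introns minus exons the SD of 0.09 covers both signs. Leaving out the block cannot move either mean, and centring the arrays cannot move introns minus exons. Leaving out 1 litter gave -0.08 to -0.04 and -0.04 to 0.01. Without the replicate block the means were -0.06 and -0.01 as before. There, 3 intron controls were called in place of 1, and 31 of all 212366 probesets in place of 14. Relative to their gene, the called intron controls stayed at 0, while 18 of all 203797 probesets were called in place of 2. The called host genes stayed at 0. The count of called intron controls was 5 with a pseudocount of 64, where 31 of all 212366 probesets were called. It was 2 without the filter (14 of 229581), 2 with centred arrays (18 of 212366) and 2 with probesets matching 1 place (16 of 180036). With trend and robust it was 7 (103 of 212366). With the paired test without moderation it was 0 (0 of 212366), and 260 intron controls and 11056 of all probesets had an unadjusted p below 0.05. With 1 litter left out the count was 0 to 2 (9 to 16 of 212366). It was 0 without litters 1, 2, 5 and 6, 2 without litter 3, and 0 without Copa (10 of 212219). The called Copa intron kept a difference of 1.49 to 1.69 under 15 alternatives, with adjusted p from 1.57e-09 to 0.532, and without litters 1, 2, 4, 5 and 6 its adjusted p was 0.0504 to 0.0596. With hosts by transcript cluster, 1 intron control was called relative to its gene (3 of all 209558 probesets). The median intron signal was 142 after the filter, which removes dim probesets, and 124 for enclosed introns, where the cause was not tested.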
